A study of Mus musculus with 16 samples.

Results

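The comparison set uninduced EB5 NERT embryonic stem cells (ESC) against EB5 control ESC, 4 of the 16 mouse arrays of the study, 2 per line. EB5 NERT cells carry a 4-hydroxytamoxifen (OHT)-inducible form of the intracellular domain of murine Notch1, and EB5 control cells carry the same pCAG vector lacking the insert. Both NERT arrays came from cells that received no OHT, 1 after 4 h in serum-free medium favoring ectodermal differentiation (ESCe) and 1 after 4 h in medium with 1% fetal calf serum (FCS) favoring mesodermal differentiation (ESCm). Both control arrays came from ESCm medium, 1 without OHT and 1 with 1 µM OHT for 4 h. All 4 cultures were grown on gelatine and received 10% serum replacement, and none received cycloheximide. Each value below is given for NERT ESCe and then NERT ESCm, and for control ESCm without and then with OHT. Medium thus differs within the NERT pair and OHT within the control pair, and a difference between the lines cannot be told apart from a difference between the transfected clones or cultures that represent them. The labels do not say that arrays of a line came from separate cultures, so the p-values reflect array-to-array spread that could be technical.

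NERT is meant to stay outside the nucleus until OHT is added, and the uninduced line is therefore the baseline from which induction is read. In the nucleus the Notch1 intracellular domain joins the DNA-binding protein RBP-J and turns on genes such as the Hes and Hey repressors and the feedback regulator Nrarp. Mouse ESC hold a network of pluripotency factors, and cultures can also contain cells that have turned on genes of the primitive endoderm, the lineage that forms the yolk sac. Independently derived lines of one parent ESC line can differ in such genes without any treatment.

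The Notch targets are introduced by sequence because RBP-J binds a short core, TGGGAA or TTCCCA on the opposite strand, shown in capitals within the 250 bases before the annotated start (RefSeq, GRCm38.p6). Hes5 (chr4:154960673-154960922, plus strand) held 2 cores, Hey2 (chr10:30842784-30843033, minus strand) and Fabp7 (chr10:57784673-57784922, plus strand) 1 each, and Nrarp (chr2:25180508-25180757, plus strand) none in this window.
Hes5: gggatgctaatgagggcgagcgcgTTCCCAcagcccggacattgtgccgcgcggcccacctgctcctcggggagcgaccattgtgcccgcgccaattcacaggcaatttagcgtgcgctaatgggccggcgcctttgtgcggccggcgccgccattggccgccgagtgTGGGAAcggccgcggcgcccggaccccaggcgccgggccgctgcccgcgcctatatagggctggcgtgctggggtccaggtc
Hey2: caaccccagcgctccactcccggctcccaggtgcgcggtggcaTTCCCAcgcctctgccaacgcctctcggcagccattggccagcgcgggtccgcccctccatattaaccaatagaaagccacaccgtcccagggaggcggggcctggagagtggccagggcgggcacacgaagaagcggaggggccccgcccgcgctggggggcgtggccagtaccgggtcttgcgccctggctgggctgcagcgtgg
Fabp7: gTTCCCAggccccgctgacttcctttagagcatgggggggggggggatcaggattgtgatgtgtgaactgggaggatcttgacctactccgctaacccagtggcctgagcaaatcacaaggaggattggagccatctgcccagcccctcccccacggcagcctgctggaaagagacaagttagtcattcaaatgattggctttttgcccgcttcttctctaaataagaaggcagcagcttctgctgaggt
Nrarp: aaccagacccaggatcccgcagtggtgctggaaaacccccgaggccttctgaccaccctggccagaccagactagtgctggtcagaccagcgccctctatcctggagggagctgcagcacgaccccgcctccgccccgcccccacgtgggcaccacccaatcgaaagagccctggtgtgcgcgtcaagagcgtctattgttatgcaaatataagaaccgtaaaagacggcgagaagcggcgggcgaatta
Of 32851 promoter windows of the table, 21.6% held the core. Of the 17 Notch1-responsive genes that were higher in NERT ESC, 14 had a promoter in the table, and 6 of their 15 windows (40.0%) held it. Among genes called higher in NERT ESC 109 of 424 windows (25.7%) and among genes called lower 81 of 478 (16.9%) held it, against 20.1% of 11677 windows of all genes tested. A match is a description of the letters and not a binding site.

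The 4 arrays were ESC arrays by their markers. Pou5f1, the core pluripotency factor, was at 2876 and 2954 in NERT cells, against 2490.5 and 2624 in control cells (expression value in dChip units). Sox2, its partner, was at 5762 and 5337 in NERT cells, against 5785 and 5842 in control cells, and Zfp42 (Rex1), a marker of undifferentiated ESC, at 4989 and 5164 in NERT cells, against 5502 and 5554 in control cells. Array medians over 45037 probe sets were 42.8 and 43.7 in NERT ESC and 42 and 42.8 in control ESC, and the number of arrays limits the precision. Over probe sets with a mean of 50 or more in at least 1 line (21851), the root mean square log2 distance was 0.20 within the NERT pair and 0.16 within the control pair, and 0.26 to 0.28 between arrays of different lines. The lines therefore differed more than the arrays within a line did, although the NERT pair spans both media. In the paper's principal component analysis, which also held mesodermal and cycloheximide-treated cells, the ESC of both lines lay close to each other.

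Uninduced NERT ESC had higher values than control ESC of Col3a1 (7.59-fold), Cd44 (5.08-fold) and the ligand Jag1 (2.43-fold), and of a share of Notch1-responsive genes. They had lower values of Srgn (7.31-fold) and of the primitive endoderm genes Sox17 (4.83-fold), Sox7 (5.36-fold) and Dab2 (2.84-fold), of the germ line gene Rhox6 (3.21-fold) and of Dppa3 (3.69-fold), 1 of the 2 genes called among 24 naive pluripotency genes. By limma on log2 of the value plus 25, with adjustment over all probe sets tested, 710 probe sets (3.25%) were higher and 749 (3.43%) lower in NERT ESC. Read as 1 probe set per gene, 404 of 11226 genes tested (3.6%) were higher and 435 (3.87%) lower. The median log2 difference of all genes tested was -0.03. Both NERT arrays lay on one side of both control arrays for 22.4% (higher) and 28.5% (lower) of probe sets tested, and for 21.8% and 30.4% of genes tested, so the position of the arrays alone separates little. At least 2-fold with a difference over 50 and no overlap of the lines was met by 98 probe sets (0.448%) upward and 76 (0.348%) downward, and all of these also passed limma. The counts rest on the spread used: with the 12 conditions of the study as groups, where the spread comes from replicated mesodermal arrays, 28 probe sets were higher and 44 lower, and with the control array with OHT as the only control (the other left out) 401 were higher and 333 lower. Without the control array with OHT 508 were higher and 373 lower, and without the NERT ESCe array 662 were higher and 1132 lower. In the only pair matched in medium and without OHT in either line, NERT ESCm against control ESCm, 1 probe set was higher (0.00458%) and 6 were lower (0.0275%) with that larger spread. For 54 genes called higher the control mean, and for 42 called lower the NERT mean, was under 50, so these entered the test only through the line in which they were high.

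Col3a1, Cd44 and Trh showed the largest differences among genes higher in NERT ESC. The 15 largest spanned log2 differences of 1.27 to 2.25, with adjusted p between 9.53e-07 and 0.000432. They were picked for their size among called genes whose arrays did not overlap between the lines. The sizes are therefore the upper end of the distribution, and the lack of overlap was fixed by the choice. For 6 of the 15 the control mean was under 50, so they entered the test only through the NERT line. Col3a1, a fibrillar collagen, had values of 274 and 225 in NERT cells, against 38.4 and 27.4 in control cells, a difference of 2.25 ± 0.142 on the log2 scale (SE, adjusted p = 1.81e-06). Cd44, a hyaluronan receptor at the cell surface, was at 297 and 291 in NERT cells, against 64.9 and 51.1 in control cells, 5.08-fold higher (log2 1.95 ± 0.122, adjusted p = 1.81e-06). Bgn, which encodes the matrix proteoglycan biglycan, was at 324 and 295 in NERT cells, against 68.5 and 88.2 in control cells, a 3.95-fold difference. In each of these the lower NERT array stood above the higher control array by a wide margin.

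Cav1, which encodes the coat protein of caveolae, was at 361 and 315 in NERT cells, against 83.8 and 91.6 in control cells (log2 1.68 ± 0.115, adjusted p = 3.28e-06). Anxa1, a calcium-dependent phospholipid-binding protein, was at 1578 and 1408 in NERT cells, against 604 and 581 in control cells. The receptor tyrosine kinase Axl was at 155 and 145 in NERT cells, against 49.6 and 45.9 in control cells, 3.15-fold higher in NERT ESC. All were above both control arrays in either medium, which their choice required. Prss23, a serine protease, was at 1141 and 1158 in NERT cells, against 407 and 419 in control cells and had the smallest adjusted p among the genes higher in NERT ESC that are named (9.53e-07). Ccnd2, which encodes the G1 cyclin D2, was at 350.1 and 332 in NERT cells, against 105 and 109.9 in control cells (3.18-fold), and its 6 tested probe sets were all called higher. Ankrd1, an ankyrin repeat protein known from heart muscle, was at 183 and 216 in NERT cells, against 66.5 and 57.0 in control cells.

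Trh, the precursor of thyrotropin-releasing hormone, was at 556 and 448 in NERT cells, against 119.8 and 109 in control cells (log2 1.91 ± 0.119, adjusted p = 1.81e-06). The chemokine Ccl17 was at 88.8 and 93.5 in NERT cells, against 22.1 and 8.97 in control cells, at least 3.65-fold higher against a floor of 25. Atp1a4, a sodium pump subunit known from sperm, was at 104 and 78.3 in NERT cells, against 4.91 and 11.1 in control cells, at least 3.64-fold higher. It was the 1 named gene that also passed in the matched-medium pair (log2 1.79, adjusted p = 0.0209), a call that was lost with a pseudocount of 5 and with no filter on low values. Nupr1, a nuclear protein of the stress response, was at 341 and 304 in NERT cells, against 98.1 and 99.9 in control cells, and Cyp1b1, a cytochrome P450 enzyme, at 178 and 135 in NERT cells, against 51.5 and 48.3 in control cells. The transcript 2900055J20Rik was at 61.0 and 57.2 in NERT cells, against 11.1 and 3.27 in control cells, at least 2.36-fold. No overlap between the lines was a condition for naming these genes. The 15th gene by size was Axl with 1.27, and the 16th, Mmp2, a matrix metalloprotease, had 1.26.

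**Figure D1:**
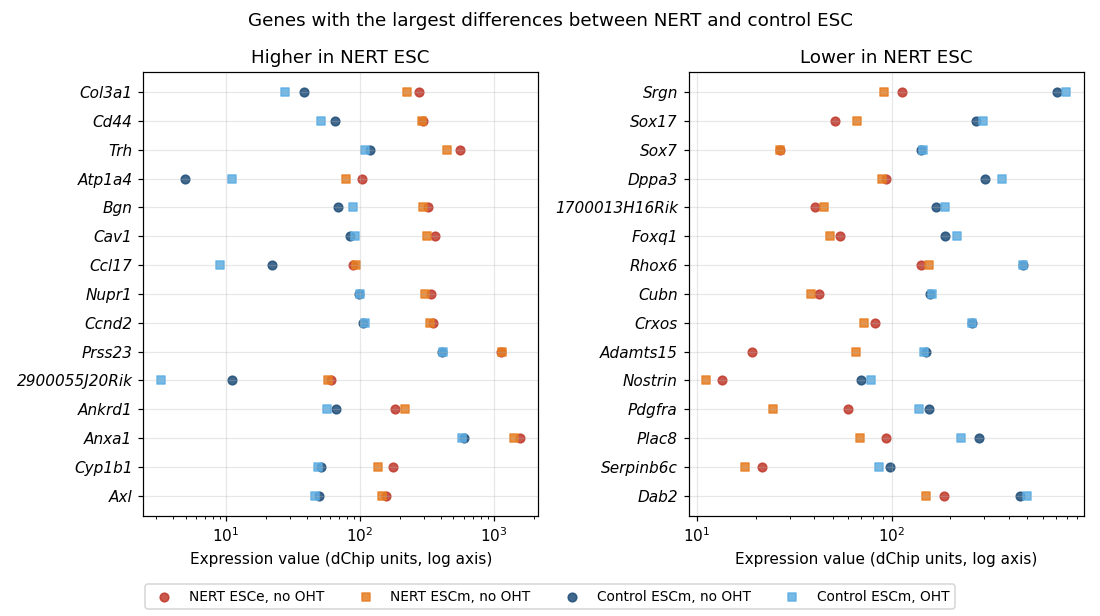
Expression values (dChip units, log axis) of the 15 genes with the largest differences in each direction, with 1 point per array for NERT ESCe and ESCm without OHT and for control ESCm without and with OHT. Both NERT points lie on one side of both control points in every gene because this was a condition of the choice. Genes run from Col3a1 (274 and 225 against 38.4 and 27.4) at the top of the left panel to Dab2 (187 and 149.6 against 458 and 498) at the foot of the right.

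Genes of the primitive endoderm were prominent among those lower in NERT ESC. Sox17, an endoderm transcription factor, was at 51.0 and 66.2 in NERT cells, against 271 and 295 in control cells, 4.83-fold lower (log2 -1.89 ± 0.126, adjusted p = 2.73e-06). The related factor Sox7 was at 26.6 and 26.8 in NERT cells, against 141 and 145 in control cells, 5.36-fold lower. Gata6, which directs cells into the primitive endoderm, was at 89.1 and 80.0 in NERT cells, against 249 and 250.3 in control cells (log2 -1.33 ± 0.113, adjusted p = 1.81e-05), and Foxa2, a forkhead factor of endoderm, was at 16.8 and 17.7 in NERT cells, against 56.3 and 54.0 in control cells. For all of them both NERT arrays, 1 per medium, lay under both control arrays, which are ESCm.

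The genes these factors accompany in endoderm were lower as well. Dab2, an endocytic adaptor, was at 187 and 149.6 in NERT cells, against 458 and 498 in control cells, 2.84-fold lower. Cubn, the endocytic receptor cubilin of visceral endoderm, was at 42.6 and 38.5 in NERT cells, against 158 and 161 in control cells, and its partner Amn at 105 and 86.0 in NERT cells, against 166 and 156 in control cells. Among basement membrane genes, Lama1, a laminin chain, was at 243 and 233 in NERT cells, against 588 and 613 in control cells (log2 -1.25 ± 0.0948, adjusted p = 6.76e-06). Col4a1 and Col4a2, which encode the paired chains of type IV collagen, differed by -0.78 ± 0.0774 and -0.70 ± 0.0887 on the log2 scale. The laminin chain Lamb1 was at 1253 and 1171 in NERT cells, against 1764 and 1763 in control cells. In sum 11 of the 14 tested genes of a list of 17 were lower and none higher, with a median of -0.85 against -0.03 over all genes tested, and beside a background of 3.87% of genes called lower. Of the 11, Sox7, Foxa2 and Cubn had a NERT mean under 50 and entered the test only through the control line, and 5 of the 11 calls were kept with 12 conditions as groups. The other 3 were Gata4 (44.8 and 51.5 in NERT cells, against 54.5 and 49.5 in control cells), Hnf4a (83.4 and 105 in NERT cells, against 86.1 and 116 in control cells) and Sparc (5498 and 4937 in NERT cells, against 5498 and 5605 in control cells), none of which was called. The yolk sac products Afp and Ttr stayed under 20 on all 4 arrays, and Foxa1 under 30. The summed value of the list was 9059 and 8242 in NERT ESC and 11752 and 12013 in control ESC. In such bulk samples fewer cells of a type and less RNA per cell cannot be told apart.

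Other genes far lower in NERT ESC are not on the primitive endoderm list. Srgn, which encodes the granule proteoglycan serglycin, had the largest difference among named genes on the scale of log2(value + 25), with values of 114 and 91.1 in NERT cells, against 712 and 786 in control cells, 7.31-fold lower (log2 -2.61 ± 0.114, adjusted p = 2.44e-07). Pdgfra, a growth factor receptor of primitive endoderm and mesoderm, was at 59.6 and 24.6 in NERT cells, against 156 and 138 in control cells, and Adamts15, a matrix metalloprotease, at 19.2 and 65.3 in NERT cells, against 149.8 and 148 in control cells. In these last cases the NERT arrays also differed from each other, by 3.41 times for Adamts15. Pdgfra had 2 tested probe sets, both lower in NERT ESC, of which 1 was called. The forkhead gene Foxq1 was at 54.3 and 48.2 in NERT cells, against 188 and 217 in control cells and Plac8 at 93.4 and 69.2 in NERT cells, against 281 and 229 in control cells. Nostrin, which binds endothelial nitric oxide synthase, was at 13.4 and 11.2 in NERT cells, against 70.0 and 78.5 in control cells, at least 2.97-fold lower against a floor of 25, and the protease inhibitor gene Serpinb6c was at 21.7 and 17.6 in NERT cells, against 98.1 and 86.1 in control cells, at least 3.68-fold lower. The X-linked transcript 1700013H16Rik was at 40.3 and 44.7 in NERT cells, against 170.1 and 188 in control cells. Lack of overlap between the lines was again a condition of the choice. For 7 of the 15 named genes lower in NERT ESC the NERT mean was under 50. These entered the test only through the control line. The 15th gene by size was Dab2 with -1.39, and the 16th was Fbp2 with -1.38.

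Germ line genes were lower in NERT ESC as well. Of 23 genes on the list 18 were tested, of which 9 were lower (beside 3.87% of all genes tested) and none higher (median -0.34). With 12 conditions as groups 2 of the 9 calls were kept, and with no trend 6. Rhox5, the founding member of the X-linked Rhox homeobox cluster, was at 1365 and 1339 in NERT cells, against 3165 and 3451 in control cells (log2 -1.27 ± 0.062, adjusted p = 4.42e-07). Rhox6 was at 141 and 156 in NERT cells, against 477 and 477 in control cells and Rhox9 at 138 and 163 in NERT cells, against 373 and 382 in control cells. Mael, needed to silence transposons in germ cells, was at 724 and 701 in NERT cells, against 1221 and 1206 in control cells, and Dazl, an RNA-binding protein of germ cells, at 523 and 517 in NERT cells, against 767 and 763 in control cells. Slc25a31, Tex19.1, Stra8 and Hormad1 were lower by smaller amounts, with log2 differences of -0.60, -0.38, -0.34 and -0.32. Ddx4 (Vasa) was at 417 and 386 in NERT cells, against 391 and 386 in control cells and was not called. Dppa3 (Stella), a maternal protein of early embryos and germ cells that was listed here with the naive pluripotency genes, was at 93.5 and 89.1 in NERT cells, against 301 and 372 in control cells (log2 -1.63 ± 0.121, adjusted p = 5.97e-06), and the homeobox gene Crxos at 82.1 and 72.2 in NERT cells, against 259 and 261 in control cells.

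Most pluripotency genes were not called. Of 24 naive pluripotency genes, all tested, 2 were lower, Dppa3 and Fbxo15 (log2 -0.28 ± 0.0548), and none was higher, with a median of -0.05 and beside 3.87% of all genes called lower. Neither call was kept with 12 conditions as groups, and 1 was kept with no filter or no trend. Nanog was at 1909 and 2058 in NERT cells, against 2176 and 2151 in control cells (log2 -0.12 ± 0.0611, adjusted p = 0.27) and Klf4 at 915 and 899.8 in NERT cells, against 1071 and 1124 in control cells (log2 -0.27 ± 0.0744, adjusted p = 0.0507). For Klf4 the arrays of the lines did not overlap, but the difference missed the threshold. Esrrb, another factor of self-renewal, was at 975 and 879 in NERT cells, against 1087 and 1062 in control cells. Of 10 tested genes of the primed epiblast and Nodal signaling, 3 were lower, again beside 3.87%. None of these 3 calls was kept with no trend or with 12 conditions as groups, and 1 was kept with no filter or without the control array lacking OHT. They were the DNA methyltransferase Dnmt3b (3787 and 3957 in NERT cells, against 5171 and 4812 in control cells), the homeobox factor Otx2 (530.4 and 485 in NERT cells, against 720.0 and 655 in control cells) and the POU factor Pou3f1 (735 and 807 in NERT cells, against 929 and 1020.5 in control cells). Among 9 tested genes of primitive streak and mesoderm only Pdgfra was called (lower, beside 3.87% of all genes tested). Its NERT mean was under 50, so it entered the test only through the control line. Mixl1 and Eomes open mesoderm formation. Mixl1 was at 46.1 and 48.5 in NERT cells, against 55.8 and 58.1 in control cells. Eomes was at 85.2 and 62.4 in NERT cells, against 111 and 102 in control cells.

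Genes of neuroectoderm were partly higher in NERT ESC. Pax6, a paired-box factor of the early brain and eye, was at 115 and 93.8 in NERT cells, against 34.6 and 32.6 in control cells (log2 1.14 ± 0.144, adjusted p = 0.000389). The paper also names Pax6 as a gene that activated Notch1 induces in ESC and not in mesodermal cells. The part of this in the Pax6 difference was not tested. Nes, the intermediate filament nestin of neural progenitors, was at 222 and 218 in NERT cells, against 109 and 94.3 in control cells, and Ncam1, a neural cell adhesion molecule, at 133 and 125 in NERT cells, against 56.5 and 67.5 in control cells. Gbx2 differed by 0.38 ± 0.099. These 4 of 8 tested genes of the list were higher and none lower (median 0.34), beside a background of 3.6% of genes called higher. This count depends on the list: Otx2 and Pou3f1, counted above with the primed epiblast genes, were lower. Of the 4, Pax6 had a control mean under 50 and entered the test only through the NERT line. The median was 0.18 when all probe sets of a gene were used, and 1 of the 4 calls was kept with 12 conditions as groups. Sox1, which marks neural progenitors, was at 63.1 and 57.2 in NERT cells, against 46.8 and 40.5 in control cells and was not called, and Tubb3, a neuronal tubulin, was at 264 and 271 in NERT cells, against 275 and 253 in control cells. Zic1, Neurog2, Map2 and Otx1 stayed at or under 30.1 on all 4 arrays.

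Fibroblast genes were measured as markers of cells that an ESC culture could carry. Of 10 genes 5 were tested and 4 were higher in NERT ESC (beside 3.6% of all genes tested), Col3a1 and the type I collagen genes Col1a1 (207 and 178 in NERT cells, against 82.6 and 78.0 in control cells) and Col1a2 (511 and 449.8 in NERT cells, against 251 and 226 in control cells), and Fn1, which encodes fibronectin (3039.8 and 3224 in NERT cells, against 2064 and 1987 in control cells). The surface marker Thy1 was at 60.3 and 50.2 in NERT cells, against 63.5 and 52.8 in control cells, and the groups overlapped. Dcn and Lum, proteoglycans typical of fibroblasts, were at 33.7 and 30.6 in NERT cells, against 27.3 and 27.0 in control cells and at 18.2 and 16.01 in NERT cells, against 21.3 and 13.9 in control cells, under the array medians in both lines. S100a4 was at 36.8 and 31.8 in NERT cells, against 16.1 and 18.5 in control cells. The summed value of the list was 4232 and 4257 in NERT ESC and 2589 and 2466 in control ESC, mostly Fn1. Col3a1 had a control mean under 50 and entered the test only through the NERT line. With 12 conditions as groups 1 of the 4 calls was kept. The part of such cells in the collagen differences was not tested.

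**Figure D2:**
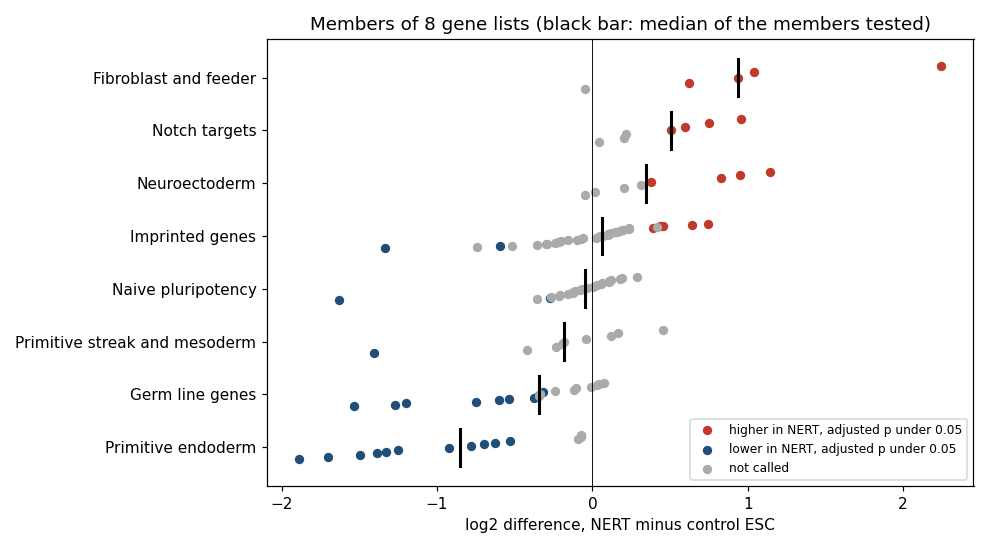
Log2 differences (NERT minus control ESC, x axis) of the members tested in 8 gene lists, with 1 point per gene and a black bar at the median. Points called by limma are red (higher in NERT) or blue (lower), and those not called are grey. The primitive endoderm median is -0.85 with 11 of 14 members lower, and the naive pluripotency median is -0.05.

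Part of the Notch targets stood above control in NERT ESC that had received no OHT. Of 12 canonical targets 7 were tested, of which 4 were higher (beside 3.6% of all genes tested) and none lower. Of the 4, Hey2 and Fabp7 had a control mean under 50 and entered the test only through the NERT line. The calls were fewer under several settings, with 2 kept with no filter, with a filter at a line mean of 100, without the NERT ESCe array or without either control array, and 1 with 12 conditions as groups. Hes1, the best known Notch-responsive repressor, was at 191 and 186 in NERT cells, against 124 and 127 in control cells (log2 0.50 ± 0.111, adjusted p = 0.0165). Nrarp, a feedback inhibitor of the pathway, was at 110.3 and 113 in NERT cells, against 54.9 and 57.6 in control cells (1.99-fold, adjusted p = 0.00331). Hey2 was at 52.7 and 49.7 in NERT cells, against 26.3 and 24.4 in control cells and Fabp7, a fatty acid-binding protein of neural progenitors, at 57.1 and 44.6 in NERT cells, against 15.97 and 12.1 in control cells. With OHT, NERT ESCe and ESCm stood at 1691 and 1769 for Nrarp, 271 and 262 for Hey2, 322 and 307 for Fabp7 and 341 and 373 for Hes1. Hes5, whose promoter above held 2 cores, was at 31.6 and 25.4 in NERT cells, against 13.9 and 16.6 in control cells, too low to be tested, and at 632 and 584 with OHT. Hey1 was likewise low, at 46.8 and 32.8 in NERT cells, against 19.8 and 21.6 in control cells. Heyl and Lfng, also too low to be tested, overlapped between the lines, at 29.6 and 23.5 in NERT cells, against 24.1 and 27.1 in control cells and at 43.4 and 36.1 in NERT cells, against 41.2 and 30.6 in control cells. Sox9 was at 11.6 and 13.7 in NERT cells, against 11.3 and 4.98 in control cells. Hes7 was tested and overlapped as well, at 157 and 202 in NERT cells, against 168 and 177 in control cells (log2 0.04). Dtx1 and Dtx4, regulators of Notch turnover, were not called (log2 0.22 ± 0.118 and 0.20 ± 0.112).

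Of the 9 Notch receptors and ligands, all tested, only the ligand Jag1 was called, beside 3.6% of all genes called higher. Jag1 was at 342 and 327 in NERT cells, against 139 and 136 in control cells (log2 1.15 ± 0.104, adjusted p = 2.79e-05). Notch1 itself was measured by a pair of probe sets. The brighter read 469.7 and 351 in NERT cells, against 301 and 303 in control cells (log2 0.40 ± 0.123, adjusted p = 0.0786), and the other 266 and 266 in NERT cells, against 234 and 224 in control cells (log2 0.20 ± 0.102, adjusted p = 0.299). Neither was called, although both NERT arrays were above both control arrays in each. Where these probes lie relative to the part of Notch1 in the construct is not given in the sources used here, so they do not check for the transgene. The receptor Notch2 and the ligand Dll3 had both NERT arrays under both control arrays (log2 -0.21 and -0.27) and were not called. Notch4, Notch3, Dll1, Jag2 and Dll4 differed by 0.17, 0.04, 0.06, 0.01 and -0.13 on the log2 scale and were not called.

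A wider set of Notch1-responsive probe sets was taken from arrays that the ESC comparison does not use. It held 99 probe sets that were at least 2-fold and over 50 higher with OHT in NERT mesodermal cells both without and with cycloheximide. Of these 57 were tested in ESC, of which 22 were higher in uninduced NERT ESC (38.6%, beside 3.25% of all probe sets tested) and none was lower. For 11 of the 22 the control mean was under 50, so they entered the test only through the NERT line, and 42 of the 99 were not tested. These shares are therefore a description. With no filter on low values all 99 were tested and 14 were higher (14.1%, beside 0.571% of all probe sets), and with 12 conditions as groups 6 of the 22 calls were kept. Leaving out 1 array kept 16 to 21 of them, and without the NERT ESCe array 2 members were lower. Both NERT arrays exceeded both control arrays for 36 (63.2%, beside 22.4%), and 43 differences were above 0, with a median of 0.31 and a range of -0.47 to 1.68. Requiring 3-fold in both conditions left 21 tested, of which 7 were higher and none lower (median 0.27). With 2-fold in the presence of cycloheximide as the only criterion 102 were tested, of which 31 were higher and 2 lower (median 0.23). The 22 probe sets name 17 genes, and 2 of them name none.

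Cav1, Ankrd1 and Jag1 of this set are given above. So are Nrarp, Hey2 and Fabp7, which are counted both here and among the canonical Notch targets. Flt1, a receptor for vascular endothelial growth factor, was at 85.2 and 67.6 in NERT cells, against 17.9 and 14.9 in control cells, at least 3.06-fold higher. Tnfaip2 was at 82.3 and 72.0 in NERT cells, against 26.7 and 19.06 in control cells, and Hbegf, a ligand of the epidermal growth factor receptor, at 323 and 344 in NERT cells, against 183 and 168 in control cells. Lrig1, which restrains that receptor, was at 131 and 96.5 in NERT cells, against 66.1 and 47.9 in control cells. All of them were higher still with OHT, at 136 and 123 for Flt1, 269 and 222 for Tnfaip2, 751 and 737 for Hbegf and 371 and 351 for Lrig1. Where several probe sets of a gene were in the set, these values are from the one with the largest difference. Brighter probe sets of Flt1 and Hbegf were also called higher, with smaller ratios. That of Flt1 read 124 and 106 in NERT cells, against 43.8 and 35.3 in control cells (2.91-fold). That of Hbegf read 1074 and 1083 in NERT cells, against 617 and 605 in control cells (1.77-fold). The metalloprotease genes Adamts1 and Adamts4 were at 113 and 85.2 in NERT cells, against 44.6 and 48.8 in control cells and at 88.0 and 71.8 in NERT cells, against 39.6 and 34.8 in control cells. Ankrd1 differed from these. Its Notch1-responsive probe set, a dimmer one than that given above, read 144 and 127 with OHT, under the values without (174 and 153), while control cells stood at 37.7 and 46.2. The remaining genes were Morrbid, Fjx1, Mcam, Spsb1 and Phlda2 with log2 differences of 0.90, 0.68, 0.47, 0.43 and 0.39. Another Fjx1 probe set of the set was not called by limma (log2 0.36, adjusted p = 0.214). Members that were not called include the stem cell factor gene Kitl (146 and 100.0 in NERT cells, against 82.5 and 90.8 in control cells) and the kinase gene Tec (71.2 and 47.3 in NERT cells, against 35.8 and 36.0 in control cells).

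**Figure D3:**
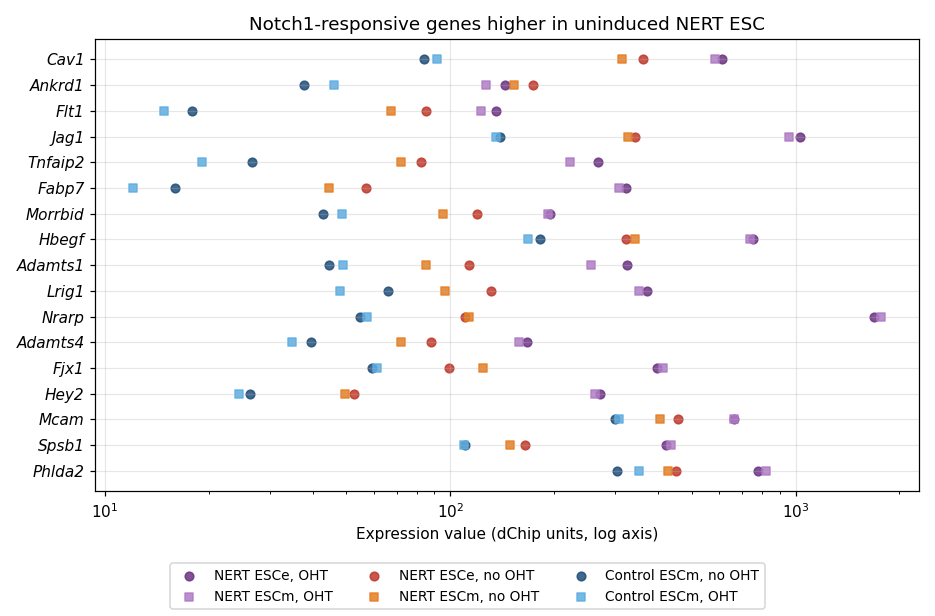
Expression values (dChip units, log axis) of the 17 Notch1-responsive genes that were higher in uninduced NERT ESC, with 1 point per array for NERT ESC with OHT, NERT ESC without OHT and control ESC. Where several probe sets of a gene were called, the one with the largest difference is drawn. For most genes the uninduced NERT points lie between the control points and the induced points, as for Nrarp (1691 and 1769 with OHT, 110.3 and 113 without, 54.9 and 57.6 in control cells), and for Ankrd1 the induced points do not exceed the uninduced ones.

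The same lines were also measured after 4 days of mesodermal differentiation, on arrays with no part in the ESC comparison, with 2 NERT arrays without OHT and 2 control arrays, 1 without and 1 with OHT. There 3911 of 22228 probe sets tested (17.6%) were higher and 1830 (8.23%) lower in NERT cells, or 21.1% and 8.81% of genes tested. This count leaned on the control arrays: without the control array lacking OHT 330 were higher and 83 lower, and without the one with OHT 490 and 98. Of 383 genes higher in NERT ESC and tested in mesodermal cells, 221 (57.7%) were higher there too and 22 (5.74%) lower, beside 20.1% and 9.21% of all 10785 genes tested in both. Of 406 genes lower in NERT ESC, 110 (27.1%) were lower there and 64 (15.8%) higher. The median mesodermal log2 difference was 0.43 for the genes higher in ESC and -0.08 for those lower, against 0.05 over all genes tested in both. The paper reports that NERT and control mesodermal cells lay slightly apart in its clustering. It gives a varying pace of differentiation among clones as the probable reason. In mesodermal cells a line difference therefore cannot be told apart from a difference in stage.

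Of the 15 named genes higher in NERT ESC, 12 were tested in mesodermal cells and 10 were higher there. Cd44 was at 359 and 357 in NERT mesodermal cells and 106 and 114 in control mesodermal cells, Bgn at 462 and 697 in NERT and 127 and 122 in control cells, and Ccnd2 at 534 and 541 in NERT and 132 and 115 in control cells. In these genes the NERT line was above the control line in both cell populations. Nupr1 and Axl were not called there (log2 0.27 and 0.43). Of the 15 named genes lower in NERT ESC, 12 were tested, of which 6 were lower (Srgn, Dppa3, Rhox6, Cubn, Crxos and Plac8), 4 were not called (Sox17, 1700013H16Rik, Foxq1 and Dab2), and Adamts15 and Pdgfra were higher. Pdgfra was at 90.5 and 155 in NERT mesodermal cells, against 29.5 and 40.6 in control mesodermal cells, the reverse of its order in ESC.

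The primitive endoderm genes went in both directions in mesodermal cells. Of 12 tested there, 3 were lower (beside 8.81% of all genes tested) and 2 higher (beside 21.1%), with a median of 0.02. Sox17 was at 91.7 and 85.7 in NERT mesodermal cells, against 113 and 104 in control cells, and its difference in ESC minus that in mesodermal cells was -1.65 on the log2 scale (interaction, adjusted p = 0.000232), in a test that called 4.91% of probe sets upward and 10.5% downward. For Dab2 the corresponding value was -1.28 (adjusted p = 0.000911). The 3 lower genes were Lama1, Cubn and Amn, at -1.12 (adjusted p = 0.00598), -0.87 (adjusted p = 0.0297) and -0.84 (adjusted p = 0.00626) in mesodermal cells, and the 2 higher genes were Lamb1 and Sparc. Germ line genes were lower in part, with 7 of 14 tested called lower, beside 8.81%, and none higher (median -0.88). Rhox5 was at 382 and 470.2 in NERT mesodermal cells, against 2468 and 2505 in control mesodermal cells (log2 -2.48, adjusted p = 0.000142). Naive pluripotency genes, of which 2 were called in ESC, were lower in 20 of 24 cases in NERT mesodermal cells, beside the same 8.81% (median -0.90). Primitive streak and mesoderm genes were higher there in 13 of 18 cases, beside 21.1%, and 0 were lower (median 0.997).

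**Figure D4:**
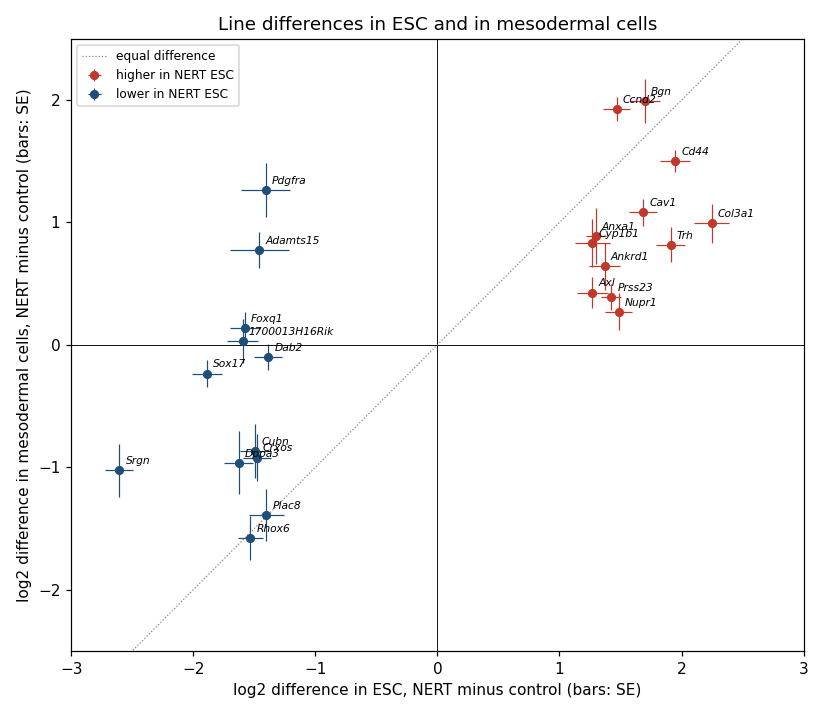
Log2 differences between NERT and control cells in ESC (x axis) and in mesodermal cells (y axis) of the 24 named genes tested in both, with bars of 1 SE and a dotted line of equal difference. Bgn, Ccnd2, Rhox6 and Plac8 lie near or beyond the line, Sox17, Dab2 and Foxq1 lie near 0 on the y axis, and Pdgfra and Adamts15 lie on opposite sides of 0 on the axes.

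No chromosome was shifted as a whole. Median log2 differences by chromosome lay between -0.06 (chromosome 12) and -0.01 (chromosome 19) over 20 chromosomes with at least 100 genes tested. The share of genes called was lowest on chromosome 17 (4.31%) and highest on chromosome X (12.9%). A called gene had a neighbor called in the same direction in 9.7% of cases for genes higher and 14.5% for genes lower. Of all genes tested 3.6% were called higher and 3.87% lower. With a neighbor on either side, part of these shares arises without any grouping, and how much was not tested. On chromosome X the neighboring genes Gm9, Rhox5, Rhox6, Rhox9 and Rhox13 were all lower in NERT ESC. Rhox13 was at 363 and 293 in NERT cells, against 517 and 602 in control cells and Gm9 at 50.2 and 53.0 in NERT cells, against 89.6 and 86.5 in control cells.

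The longest run of neighbors among genes tested was on chromosome 4, where Jak1, Ak4, Dnajc6, Leprot, C130073F10Rik and Pramel18 were all lower in NERT ESC. Ak4, a mitochondrial adenylate kinase, was at 703 and 722 in NERT cells, against 1936 and 1787 in control cells (log2 -1.35 ± 0.0737, adjusted p = 8.79e-07). Dnajc6, an auxilin that strips clathrin coats, was at 139.8 and 117 in NERT cells, against 372 and 329 in control cells, and Leprot, which shares its start with the leptin receptor gene, at 543 and 572 in NERT cells, against 1029 and 1021 in control cells. Jak1, the kinase that carries cytokine signals from gp130, had a smaller difference, at 475 and 401 in NERT cells, against 628 and 612 in control cells. In mesodermal cells 5 of the 6 were lower again, with Pramel18 at 6.81 and 24.6 in NERT cells, against 119.6 and 158 in control cells, and Jak1 not called (log2 -0.11). On chromosome 2 the neighbors Trim44, Fjx1 and Cd44 were higher in NERT ESC and again in mesodermal cells, with Trim44 at 650.0 and 664 in NERT cells, against 429.8 and 420.0 in control cells in ESC. Other runs recurred less. Dpysl3, Spink1, Dcp2 and Mcc (chromosome 18) were higher in ESC, with 2 of 4 called so in mesodermal cells. Akap1, Scpep1 and 2210409E12Rik (chromosome 11) were lower, with 1 of 3 called so there. Homer1, Jmy and Bhmt (chromosome 13) were lower, with 0 of 3. Positions are those of the RefSeq gene table, and whether the construct lies near any of these runs was not tested.

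Imprinted and Y-linked genes can differ between ESC lines and were examined as well. Of 36 tested imprinted genes 5 were higher (beside 3.6% of all genes tested) and 2 lower (beside 3.87%), with a median of 0.06. Of these 7 calls 4 were kept with no filter, with no trend or without the control array lacking OHT, and 1 with 12 conditions as groups. Plagl1, a zinc finger gene expressed from the paternal copy, was at 163 and 143 in NERT cells, against 415 and 433 in control cells (log2 -1.34 ± 0.106, adjusted p = 9.15e-06), and Mest at 1616 and 1438 in NERT cells, against 2344 and 2298 in control cells. Grb10, which dampens growth factor signaling, was at 253 and 225 in NERT cells, against 143 and 122 in control cells, Zdbf2 at 610.2 and 520.2 in NERT cells, against 342 and 365 in control cells, and Nnat, Ndn and Phlda2 were higher by 0.39 to 0.45 on the log2 scale. Plagl1, Mest, Grb10, Ndn, Nnat and Phlda2 were called in the same direction in mesodermal cells, and Zdbf2 was not called there. Of 19 tested genes of the interferon response and antigen presentation, Oas1a, Oas2 and H2-K1 were lower, beside 3.87% of all genes. None of these 3 calls was kept with no filter, with 12 conditions as groups or without either control array, and 1 without the NERT ESCe array. Of the 3, 1 had a NERT mean under 50 and entered the test only through the control line. Of 4 tested Y-linked genes 2 were lower, beside 3.87% of all genes tested. Kdm5d was at 20.0 and 23.2 in NERT cells, against 76.4 and 81.6 in control cells, and entered the test only through the control line. Eif2s3y was at 973 and 1006 in NERT cells, against 1261 and 1212 in control cells. With no filter, a filter at a line mean of 100, no trend, 12 conditions as groups or without either control array, 1 of these 2 calls was kept. Uty was at 351 and 308 in NERT cells, against 346 and 349 in control cells and was not called. Of 15 tested immediate early genes 3 were higher (beside 3.6% of all genes tested) and 1 lower (beside 3.87%). Dusp1 (1301 and 1160.2 in NERT cells, against 763 and 783 in control cells), Ccn2 (2617 and 2734 in NERT cells, against 1739 and 1918 in control cells) and Ier3 were higher. Atf3 (50.2 and 39.0 in NERT cells, against 90.2 and 102 in control cells) was lower and entered the test only through the control line. Of 11 tested BMP targets 2 were lower, beside 3.87% of all genes tested. They were Id2 (76.8 and 75.0 in NERT cells, against 155 and 147 in control cells) and Smad6 (155 and 191 in NERT cells, against 252 and 259 in control cells). The paper reports that activated Notch1 lowered Id2.

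Of 7 tested trophoblast genes 1 was higher (beside 3.6% of all genes tested) and 2 were lower (beside 3.87%). Tfap2c, a regulator of trophoblast and germ cells, was at 1134 and 962 in NERT cells, against 1562 and 1517 in control cells and the keratin gene Krt7 at 32.4 and 30.2 in NERT cells, against 86.1 and 89.8 in control cells, both lower in NERT ESC, while Krt18 was at 2348 and 2085 in NERT cells, against 1631 and 1572 in control cells and higher. Krt7 had a NERT mean under 50 and entered the test only through the control line. Cdx2, which specifies trophoblast, stayed under 50 on all 4 arrays. None of the 14 cholesterol synthesis genes was called by limma, none had an unadjusted p under 0.05, and none had both NERT arrays on one side of both controls. The NERT arrays themselves differed in this pathway, with Hmgcs1 at 3455 in NERT ESCe and 2538 in NERT ESCm, against 2650 and 3143 in control cells, and Cyp51 at 1201 and 718, against 847 and 775. Of 7 tested DNA methylation genes only Dnmt3b was called (lower, beside 3.87% of all genes tested). Of 4 tested genes of the 2-cell stage only Usp17la was called lower (log2 -0.46 ± 0.104), again beside 3.87%. With 12 conditions as groups none of the calls among immediate early, BMP target, trophoblast, DNA methylation and 2-cell stage genes was kept.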

How the data were processed

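The authors deposited linear, model-based expression intensities of 16 Affymetrix Mouse Genome 430 2.0 arrays. They had been made in dChip, with an invariant-set normalization whose baseline was the control mesoderm array with OHT. Detection calls were left aside. Of 45037 probe sets, 34945 name 1 gene (34741 of them in the RefSeq gene table), 932 name several genes and 9160 name none. A gene (18193 in all) was read from the probe set brightest on average across the 16 arrays. The wider set of Notch1-responsive genes was instead read from its own probe sets.

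Values were tested as log2(value + 25), so fold changes of weak genes are understated, with limma 3.58.1 in R 4.3.3 (lmFit, eBayes with trend, 2 residual and 10.7 prior degrees of freedom) on the 4 ESC arrays with line as the only term, for probe sets with a line mean of at least 50, with Benjamini-Hochberg adjustment and a threshold of 0.05. All tests are two-sided. An exact permutation test of 2 against 2 arrays cannot go below p = 0.333. Ratios compare means, and a mean under 25 is raised to 25, marked "at least". The matched-medium pair was fitted with 12 conditions as groups (4 residual degrees of freedom). Mesodermal arrays were fitted likewise by line, and the ESC and mesodermal differences were compared by an interaction term over 8 arrays. The fits were tested on simulated data.

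Named are the 15 largest differences per direction that passed limma with no overlap of the lines, Notch1, members of 18 gene lists, and the leading Notch1-responsive and neighboring genes. The members and lists were chosen with earlier results of these data known. Tables and figures were made with Python 3.11.15, pandas 2.3.3 and matplotlib 3.10.9. Alternatives are given in the closing section.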

Additional observations from a re-analysis of the deposited data

Results flagged for a closer look

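For 19 of the 30 named genes the line difference in ESC and that in mesodermal cells differed by the interaction term of limma (adjusted p between 0.000232 and 0.0468), a term that called 1157 (4.91%) of 23585 probe sets upward and 2485 (10.5%) downward. The genes had been picked for large differences in ESC, so smaller differences in mesodermal cells are partly a matter of that choice. Values are the log2 line difference in ESC minus that in mesodermal cells. Among genes higher in NERT ESC, Atp1a4 stood at 1.92, the transcript 2900055J20Rik at 1.41, Col3a1 at 1.25, Nupr1 at 1.22, Trh at 1.09, Prss23 at 1.03, Ccl17 at 1.01, Axl at 0.84 and Cav1 at 0.60. Ccnd2 ran the other way at -0.46, with the larger difference in mesodermal cells.

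Among genes lower in NERT ESC the endoderm factors Sox17 and Sox7 stood at -1.65 and -1.36, and Dab2, also of the primitive endoderm list, at -1.28. Foxq1 stood at -1.72, 1700013H16Rik at -1.63, Srgn at -1.58 and Nostrin at -1.26. Pdgfra at -2.67 and Adamts15 at -2.24 changed side, being lower in NERT ESC and higher in NERT mesodermal cells. Sox7, Nostrin, Atp1a4, Ccl17 and 2900055J20Rik were low in mesodermal cells of both lines and were not tested there on their own.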

How the results depend on the processing

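No call of a probe set was reversed under any alternative tried, and all 30 named genes kept their direction. Changing the filter, dropping the trend or using 12 conditions as groups leaves the log2 difference of every probe set as it was, so no call could be reversed there. What varied was the number of calls kept. Of 1459 calls, 451 were kept with no filter on low values and 598 with no trend. For the named genes still fewer alternatives could have given another result. The named genes were chosen with no overlap of the lines, so leaving out 1 array or changing the pseudocount cannot turn their sign. Only quantile normalization and the fit of 6 ESC arrays could have done so. That fit matches both control arrays exactly, so its spread comes from the NERT arrays alone and its counts are not like the others. The number of probe sets higher and lower in NERT ESC was 257 and 206 with no filter on low values, 330 and 282 with no trend, 28 and 44 with 12 conditions as groups, and 1262 and 1835 with 6 ESC arrays and terms for medium and OHT, and it ranged over 401 to 1008 and 333 to 1132 with 1 array left out. With 12 conditions as groups 20 of the 30 named genes passed, and Adamts15 alone was lost with no filter (adjusted p = 0.08) and with no trend (0.0708). The matched-medium pair gave 0 and 0 calls by limma with a pseudocount of 5 or with no filter. In mesodermal cells leaving out 1 array gave 330 to 5648 higher and 83 to 3188 lower. By fold and difference 289 and 249 probe sets passed at 1.5-fold, 32 and 29 at 3-fold, and 1263 and 985 with no minimum difference. With the median over all probe sets of a gene the primitive endoderm list stood at -0.75, the Notch targets at 0.37 and the neuroectoderm genes at 0.18. The germ line median was -0.31 with quantile normalization and -0.35 to -0.31 with 1 array left out, the neuroectoderm median 0.27 to 0.56, and the highest chromosome median -0.019 to 0.025. The cause of these shifts was not tested. No paired analysis was possible because the ESC arrays carry no replicate numbers that pair the lines. With 2 arrays per line, genes with a mean under 50 in both lines were not tested, and differences tied to medium or OHT are only in part separable from line.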
